A study of Sus scrofa with 2 samples.

Results

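Nuclear genes of oxidative phosphorylation were followed through single cells of pig endometrium, the lining of the uterus, from a sow that had lost embryos (EL) and one with successful implantation (EIS). The members were all features whose symbol begins with NDUFA, NDUFB, NDUFC, NDUFS, NDUFV, COX4 to COX8, ATP5 or UQCR, or is one of SDHA, SDHB, SDHC, SDHD and CYC1. This rule took 65 of 26881 features, and each of the 65 symbols stood on 1 feature and had counts in both libraries. By their known roles, 57 are subunits: 25 of complex I, 3 of complex II, 5 of complex III, 11 of complex IV and 13 of complex V. Another 5 (NDUFAF1, NDUFAF3, NDUFAF4, NDUFAF5 and NDUFAF7) are assembly factors of complex I, and the other 3 (ATP5IF1, COX7A2L and NDUFA4L2) are not core subunits of a complex. A further 16128 features carry an identifier and no symbol, so the 65 are the members that a symbol could name. SDHD, UQCRFS1, COX6C, ATP5MC1, COX4I2, COX6A1, COX6A2, COX6B1 and COX8C were not analysed here, and 1 member is named simply COX6B.

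Oxidative phosphorylation takes place in the inner mitochondrial membrane. Complexes I and II pass electrons from NADH and succinate to ubiquinone, complex III passes them on to cytochrome c and complex IV to oxygen, and complexes I, III and IV pump protons as they do so. Complex V, the ATP synthase, makes ATP as the protons flow back. Most subunits are encoded in the nucleus and a few in mitochondrial DNA. No feature carried the symbol of a mitochondrially encoded subunit, so the nuclear side alone was measured.

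The EL library came from a Yorkshire sow with an earlier abortion and then 3 failed inseminations in a row, whose stage at sampling is not given. The EIS library came from a Yorkshire sow at day 30 of pregnancy. Both sows were 3 years old, tissue was taken from the uterine horns, and cells were released with collagenase II, dispase and DNase, filtered, and treated to lyse red cells. With a single sow and a single library on each side, the animal, its pregnancy status, its stage and the library cannot be told apart, there is no replicate error and no test between the sows, and every interval below is a 95% interval for counting error alone.

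After filtering, 9864 EL cells and 8068 EIS cells were kept, with medians of 2345.5 and 2240.5 unique molecular identifiers (UMIs, 1 per captured transcript), and the libraries shared 27 cell barcodes. Cells were given a type when they held at least 4 distinct markers of 1 class (3 where at most 10 markers of the class were measured), a threshold set after the data had been seen. Cells past the threshold of several classes were left out as mixed, except that ciliated cells could also hold epithelial markers, and trophoblast cells epithelial and mesenchymal ones. Marker gating placed 5720 EL and 1482 EIS cells as epithelial-like, 1446 and 256 as ciliated-like, and 194 and 356 as T- or NK-like, and these 3 types were compared. In EIS alone, 623 trophoblast-gated, 934 mesenchymal-like, 180 endothelial-like and 171 macrophage-like cells were described, since EL had 0, 32, 30 and 34 of them. The trophoblast-gated cells held a median of 3 trophoblast, 5 epithelial and 6 mesenchymal markers, and 408 of the 623 had exactly the 3 needed, so their markers do not single out a trophoblast and the name stands for the gate alone. No type was given to 23.5% of EL and 24.2% of EIS cells, and 0.72% and 25.4% held markers of several classes. Among the epithelial cells, 1640 in EL and 485 in EIS held exactly the 3 markers needed. Epithelial and ciliated cells of both libraries had a median of 4 and 5 epithelial markers, and the median of mesenchymal markers was 0 in EL and 1 in EIS in each of the 3 compared types.

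The first question was how much of each cell's transcript pool the 65 genes held. Ciliated cells held nearly as much as epithelial cells in EL and the most of any type in EIS, lymphocytes of both libraries held little over 1%, and the epithelium of the 2 sows stood far apart. The members held 1.82% of UMIs (1.81 to 1.83) in EL ciliated cells, against 1.95% (1.93 to 1.97) in EIS ciliated cells. They held 1.08% (1.04 to 1.12) in EL T or NK cells, against 1.07% (1.05 to 1.10) in EIS T or NK cells, so the lymphocyte shares did not differ beyond counting error. In epithelial cells they held 1.94% (1.93 to 1.94) in EL, against 0.820% (0.815 to 0.826) in EIS. Of the types described in EIS alone, trophoblast-gated cells held 1.68%, endothelial cells 1.19%, mesenchymal cells 1.12% and macrophages 0.992%.

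The epithelial share depended on what the rest of the transcript pool held. SLPI (a secreted protease inhibitor), ACP5 (uteroferrin, an iron-binding protein of pig uterine secretions), UABP-2 (a uteroferrin-associated protein), TIMP2 (an inhibitor of matrix metalloproteinases) and 1 feature with an identifier only each took over 1% of a library. Those 5 features held 0.030% of UMIs in EL epithelial cells and 50.3% in EIS epithelial cells. Outside them the members held 1.94% in EL epithelium, against 1.65% in EIS epithelium. The same step moved ciliated cells little, to 1.83% in EL and 2.01% in EIS, and it raised EIS trophoblast-gated cells to 2.01%.

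**Figure D1:**
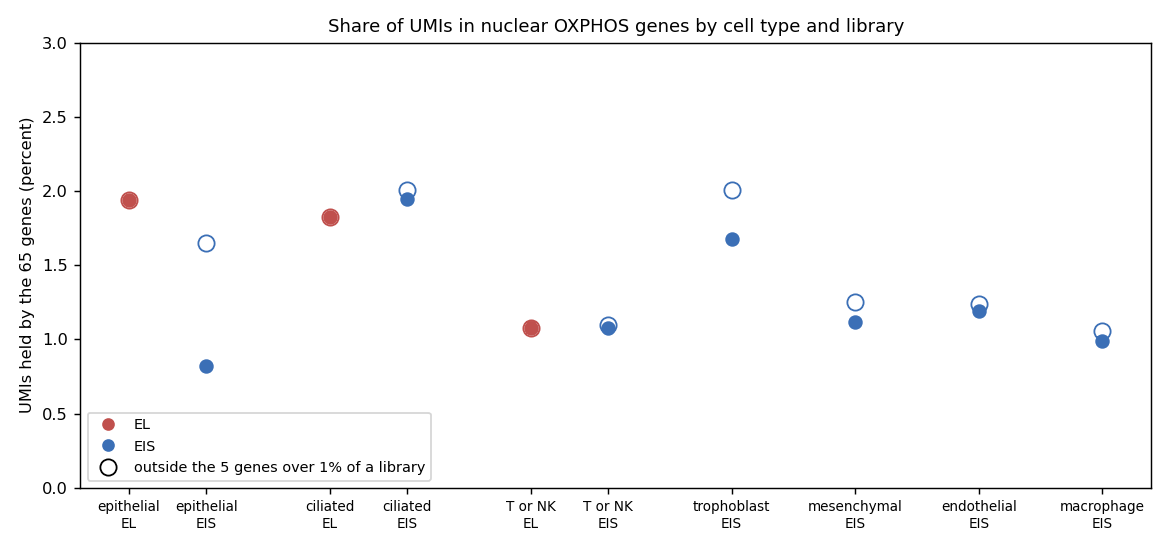
Percent of UMIs held by the 65 genes (vertical axis) in each cell type and library (EL red, EIS blue). Filled points are shares of all UMIs with exact binomial 95% intervals, mostly smaller than the point, and open points are shares outside the 5 features over 1% of a library. The EIS epithelial point lies at 0.820% filled and 1.65% open, while the T or NK points of both libraries lie near 1.08%.

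Shares were also taken per cell after each cell was thinned to 1000 UMIs. The median cell then had 16 member UMIs in EL epithelium, against 7 in EIS epithelium, 17 in EL ciliated cells, against 19 in EIS ciliated cells, and 11 in T or NK cells of both libraries. Before thinning, the median shares per cell in the same cells were 1.58% and 0.661% in EL and EIS epithelium, 1.75% and 1.93% in ciliated cells, and 1.07% and 1.07% in T or NK cells. Thinning left out 687 EL and 157 EIS epithelial cells, 54 and 2 ciliated cells, and 26 and 10 T or NK cells with fewer UMIs. Among EIS types, the thinned median was 14 in trophoblast-gated cells, 10 in endothelial cells, 9 in mesenchymal cells and 8 in macrophages.

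To compare the sows gene by gene, UMIs were summed over the cells of a type and scaled to counts per 1000000 UMIs (CPM), and the log2 ratio of EL over EIS was also set relative to the median gene, the median over all features with at least 50 UMIs in the 2 libraries together. In epithelial cells the 65 genes summed to 19381 CPM in EL, against 8203 CPM in EIS, a ratio of 2.36 (2.35 to 2.38). For the median gene of 12962 features the log2 ratio was 1.31, so relative to it the members' sum was at -0.07 (-0.08 to -0.06). In ciliated cells the sums were 18222 CPM in EL, against 19481 CPM in EIS, a ratio of 0.935 (0.925 to 0.946) and a relative log2 of -0.14 (-0.16 to -0.13). In T or NK cells they were 10786 CPM in EL, against 10741 CPM in EIS, a ratio of 1.00 (0.962 to 1.05) and a relative log2 of -0.05 (-0.12 to 0.01). The large epithelial ratio was thus shared with the typical gene of the same cells, and with trimmed mean (TMM) scaling the log2 ratio was 0.029 for the median gene and -0.041 for the members' sum, so the direction of epithelial CPM differences depends on the scaling.

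Of the 65 members, 64 had at least 50 UMIs in epithelial cells, 63 in ciliated cells and 52 in T or NK cells. In epithelium, 63 of 64 had a higher CPM in EL, where 86.7% of all features did. Relative to the median gene, 41 of 64 were lower in EL, beside 50% of all features, 6 were over 1.5-fold higher, beside 26.1%, and 15 over 1.5-fold lower, beside 27.1%. In ciliated cells 44 of 63 were lower, beside 50%, with 0 over 1.5-fold higher (11.1% of all features) and 4 over 1.5-fold lower (10.3%), and 22 of 63 had the higher CPM in EL (54.6%). In T or NK cells 31 of 52 were lower, beside 50%, with 0 over 1.5-fold higher (8.43%) and 3 over 1.5-fold lower (9.99%), and 26 of 52 had the higher CPM in EL (55.6%). The members' shares past 1.5-fold were near or under those of all features in each type. From the lower to the upper quartile the members lay between -0.56 and 0.27 (log2, relative) in epithelium, against -0.67 and 0.62 for all features, and between -0.31 and 0.06 in ciliated cells, against -0.28 and 0.28 for all features. The 3 comparisons share the same 2 libraries, so agreement between them is not independent.

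**Figure D2:**
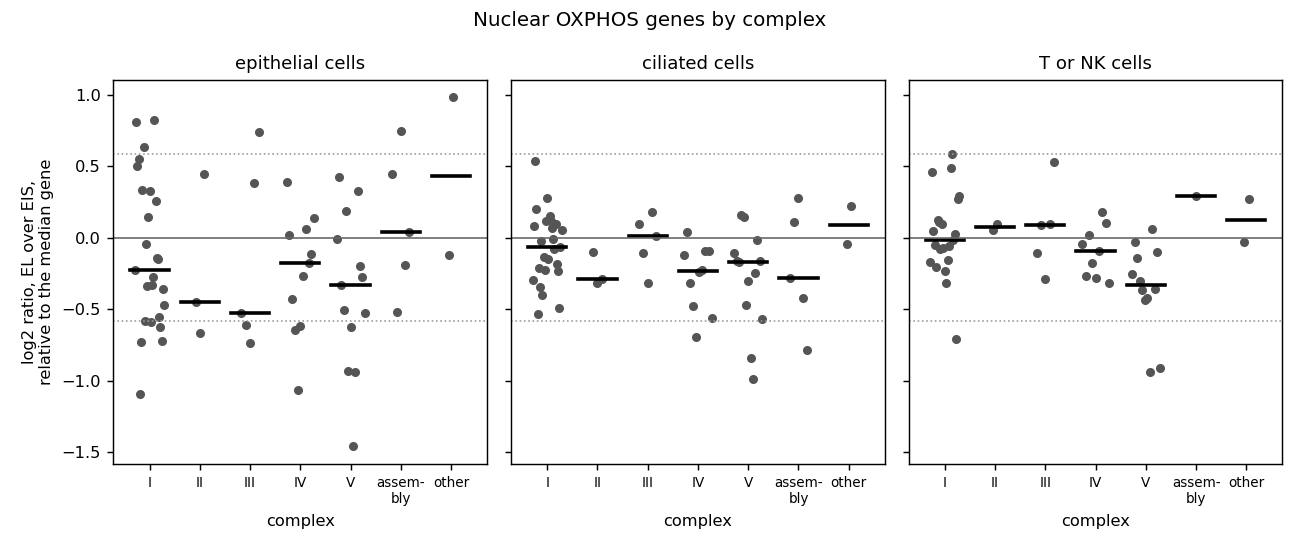
Log2 ratio of EL over EIS relative to the median gene (vertical axis) for each member with at least 50 UMIs, by complex, in epithelial, ciliated and T or NK cells. Each point is 1 gene, the black bars are medians, the solid line is the median gene and the dotted lines mark 1.5-fold. The median of complex V lies below the line in all 3 panels, and the epithelial panel has the widest spread.

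Complex I, the NADH dehydrogenase, stayed close to the median gene as a whole. Its 25 members summed to 6421 CPM in EL epithelium, against 2459 CPM in EIS epithelium, and relative to the median gene this was 0.07 (0.06 to 0.09) on the log2 scale, though 16 of 25 members were lower. In ciliated cells the relative sum was -0.02 (-0.05 to 0.01), with 15 of 25 lower, and in T or NK cells 0.02 (-0.10 to 0.14), with 11 of 21 lower. Of all features, 50% were lower in each type. Members of high count, among them NDUFA13 and NDUFC2, carried the positive epithelial sum.

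NDUFC2, an accessory subunit of the membrane arm, had 637 CPM in EL epithelium, against 145 CPM in EIS epithelium, a ratio of 4.39 (4.16 to 4.63). NDUFA12, an accessory subunit, had 407 CPM in EL, against 93.4 CPM in EIS, a ratio of 4.35 (4.07 to 4.65). NDUFA13, an accessory subunit also known as GRIM-19, had 1353 CPM in EL epithelium, against 386 CPM in EIS epithelium, and 624 CPM in EL ciliated cells, against 417 CPM in EIS ciliated cells. NDUFA13 had the highest ratio of the members tested in ciliated cells, 1.497 (1.39 to 1.62), while in T or NK cells it had 302 CPM in EL and 280 CPM in EIS, with a ratio of 1.08 (0.821 to 1.40) whose interval spans 1.

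The subunits that carry out electron transfer in complex I were less far apart than these in epithelium. NDUFV1, which binds NADH, had 93.4 CPM in EL epithelium, against 62.1 CPM in EIS epithelium, and 109 CPM in EL ciliated cells, against 149 CPM in EIS ciliated cells. It was lower in EL than the median gene in both, by 0.72 and 0.49 on the log2 scale, but in ciliated cells thinned to 1000 UMIs it was above the median gene, at 0.20. NDUFV1 in T or NK cells had 55.9 CPM in EL and 87.5 CPM in EIS on 15 and 60 UMIs, a ratio of 0.639 (0.337 to 1.14). NDUFS1, the largest iron-sulphur subunit, had 52.7 CPM in EL epithelium, against 17.8 CPM in EIS epithelium, and nearly equal levels in ciliated cells, 38.6 CPM in EL and 37.7 CPM in EIS. NDUFB8, a membrane arm subunit, had 96.9 CPM in EL epithelium, against 49.2 CPM in EIS epithelium, and 122 CPM in EL ciliated cells, against 106 CPM in EIS ciliated cells. NDUFA3, a small accessory subunit, was the member of complex I with the lowest epithelial ratio, at 125 CPM in EL, against 107 CPM in EIS, a ratio of 1.16 (1.09 to 1.25).

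In lymphocytes the complex I members at the upper end were NDUFS4, NDUFS3 and NDUFA12. NDUFS4, an accessory subunit needed for a stable complex, had 122.9 CPM in EL T or NK cells, against 78.7 CPM in EIS T or NK cells, a ratio of 1.56 (0.981 to 2.45). NDUFS3, a core subunit, had a ratio of 1.46 (0.846 to 2.47), and NDUFA12 had 305 CPM in EL and 213 CPM in EIS, a ratio of 1.44 (1.08 to 1.89). Of these, the NDUFA12 interval alone excluded 1. NDUFB6 (1.25, 1.05 to 1.503) and NDUFA2 (1.19, 1.07 to 1.33), both accessory subunits, were the next members of complex I in ciliated cells after NDUFA13. In lymphocytes NDUFV3 and the assembly factor NDUFAF3 both stood at 1.28, with intervals from 0.707 to 2.24 and from 0.729 to 2.18.

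The complex I assembly factors were low in count. NDUFAF4 had 19.5 CPM in EL epithelium, against 4.69 CPM in EIS epithelium, a ratio of 4.15 (3.08 to 5.70) on 524 and 48 UMIs. In ciliated cells it had 9.13 CPM in EL, against 7.31 CPM in EIS, with a ratio of 1.25 (0.686 to 2.46) that did not differ from 1 beyond counting error. NDUFAF7 had 8.75 CPM in EL ciliated cells, against 14.6 CPM in EIS ciliated cells, a ratio of 0.598 (0.377 to 0.978) on 70 and 26 UMIs. In T or NK cells 4 of the 5 assembly factors were under the 50 UMI minimum.

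Complex II, succinate dehydrogenase, is also an enzyme of the tricarboxylic acid cycle, and its summed level was below the median gene in epithelial and ciliated cells. SDHA, the flavoprotein, had 57.9 CPM in EL epithelium, against 32.0 CPM in EIS epithelium, and 48.3 CPM in EL ciliated cells, against 50.1 CPM in EIS ciliated cells. SDHB, the iron-sulphur subunit, had 144 CPM in EL epithelium, against 92.1 CPM in EIS epithelium, and 153 CPM in EL ciliated cells, against 185 CPM in EIS ciliated cells. SDHC, a membrane anchor, had 111 CPM in EL epithelium, against 32.7 CPM in EIS epithelium, and so stood above the median gene there, at 0.45 (log2, relative), though at -0.028 without the EIS cluster led by SLPI. The sum of the 3 genes was at -0.32 (-0.39 to -0.24) relative to the median gene in epithelium and at -0.28 (-0.40 to -0.16) in ciliated cells. In T or NK cells the sum was at 0.02 with an interval from -0.44 to 0.46, too wide to show a difference of that size.

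Complex III was split between its members in epithelium. UQCRQ, a small subunit, had 455 CPM in EL epithelium, against 110 CPM in EIS epithelium, a ratio of 4.14 (3.89 to 4.40), and 223 CPM in EL T or NK cells, against 149 CPM in EIS T or NK cells, a ratio of 1.503 (1.07 to 2.09). UQCRC2, a core protein, had 138 CPM in EL epithelium, against 42.8 CPM in EIS epithelium, a ratio of 3.23. The other core protein, UQCRC1, had 135 CPM in EL, against 90.7 CPM in EIS, a ratio of 1.49, and CYC1, which carries the haem of cytochrome c1, had 173 CPM in EL, against 100.5 CPM in EIS, a ratio of 1.72. Relative to the median gene, UQCRC2 and UQCRQ were therefore higher in EL epithelium and UQCRC1, CYC1 and UQCR10 lower, but UQCRC2 was at -0.032 (log2, relative) in cells thinned to 1000 UMIs and at -0.26 without the EIS cluster led by SLPI. In ciliated cells CYC1 had 191 CPM in EL, against 173 CPM in EIS, UQCRC1 157 CPM in EL, against 190 CPM in EIS, and the complex summed to -0.04 (-0.11 to 0.03) relative to the median gene.

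Complex IV, cytochrome c oxidase, differed from the median gene in ciliated cells and hardly in the other 2 types. Its relative sum was -0.26 (-0.29 to -0.23) in ciliated cells, against -0.04 (-0.06 to -0.03) in epithelium and -0.05 (-0.15 to 0.05) in T or NK cells. In ciliated cells 9 of 10 complex IV members were lower in EL than the median gene. Beside them stood 50% of all features and 44 of the 63 members tested there. COX4I1, the regulatory subunit and the member with the most UMIs, had 1628 CPM in EL epithelium, against 501 CPM in EIS epithelium, 1166 CPM in EL ciliated cells, against 1227 CPM in EIS ciliated cells, and 1281 CPM in EL T or NK cells, against 1267 CPM in EIS T or NK cells. EIS epithelium was thus the low point for COX4I1 among these 6 values. Relative to the median gene the epithelial log2 ratio of COX4I1 was 0.39, and -0.40 without the EL cluster led by CYP26A1. COX5A had 308 CPM in EL epithelium, against 123 CPM in EIS epithelium, and 284 CPM in EL ciliated cells, against 267 CPM in EIS ciliated cells, the one complex IV member tested there that was above the median gene in EL. NDUFA4, first described in complex I and now placed in complex IV, had 880 CPM in EL ciliated cells, against 1257 CPM in EIS ciliated cells, a ratio of 0.700 (0.668 to 0.735).

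Several complex IV subunits have isoforms with known tissue preferences. COX7A1, the heart and skeletal muscle isoform, had 115 CPM (111 to 119) in EL epithelium, against 71.3 CPM (66.3 to 76.7) in EIS epithelium, and 89.9 CPM (83.5 to 96.7) in EL ciliated cells, against 141 CPM (124 to 160) in EIS ciliated cells. Its ratio was therefore 1.61 (1.49 to 1.75) in epithelium and 0.637 (0.551 to 0.738) in ciliated cells, on opposite sides of 1, but relative to the median gene it was lower in EL in both, by 0.62 and 0.70 on the log2 scale. The widely expressed isoform COX7A2 had 634 CPM in EL epithelium, against 308 CPM in EIS epithelium, and 457 CPM in EL ciliated cells, against 522 CPM in EIS ciliated cells. COX8A had 766 CPM in EL epithelium, against 334 CPM in EIS epithelium, and 685 CPM in EL ciliated cells, against 707 CPM in EIS ciliated cells. COX6B2, known from testis, was close to absent, with 2.79 CPM in EL epithelium on 75 UMIs, against 2.35 CPM in EIS epithelium on 24 UMIs, and 0 UMIs in T or NK cells of both libraries, which at a floor of 3 counts allows up to 11.2 CPM in the EL cells and 4.37 CPM in the EIS cells.

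The members that are not core subunits went different ways. COX7A2L, which joins complexes III and IV into supercomplexes, had 276 CPM in EL epithelium, against 56.3 CPM in EIS epithelium, a ratio of 4.90 (4.50 to 5.34) that was the highest of the 64 members tested. In ciliated cells it had 212 CPM in EL, against 176 CPM in EIS, a ratio of 1.20 (1.07 to 1.36), and in T or NK cells 238 CPM in EL, against 190 CPM in EIS, a ratio of 1.26 (0.917 to 1.71). COX7A2L was thus above the median gene in EL in all 3 types, by 0.98, 0.22 and 0.27 on the log2 scale. ATP5IF1, the inhibitor that stops the ATP synthase from running in reverse, had 503 CPM in EL epithelium, against 221 CPM in EIS epithelium, and equal levels of 457 CPM in ciliated cells of both libraries. NDUFA4L2, a relative of NDUFA4 known to be induced by low oxygen, had 10 UMIs in EL epithelium and 0 in EIS epithelium, and 3 UMIs in EL T or NK cells and 0 in EIS T or NK cells. Those counts give no usable ratio, and NDUFA4L2 was at 11.2 CPM or less in each of the cell types described.

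Complex V was the complex with the lowest sum relative to the median gene in T or NK cells and stood below it in all 3 types. Its relative sum was -0.30 (-0.32 to -0.28) in epithelium, -0.23 (-0.27 to -0.20) in ciliated cells and -0.26 (-0.40 to -0.12) in T or NK cells. Of its members, 10 of 13 were lower in EL than the median gene in epithelium, 11 of 13 in ciliated cells and 11 of 12 in T or NK cells, beside 50% of all features in each. The epithelial sum was 0.10 when features with as little as 1 UMI set the median gene, the one alternative that turned its direction. Over the alternatives run it ranged from -0.69 to 0.10 in epithelium, from -0.32 to -0.19 in ciliated cells and from -0.34 to -0.11 in T or NK cells.

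Subunits e and g are small membrane subunits of the ATP synthase. ATP5ME, subunit e, had 137 CPM in EL epithelium, against 152 CPM in EIS epithelium, the one epithelial member with the lower CPM in EL, at a ratio of 0.902 (0.850 to 0.958). In ciliated cells it had 138 CPM in EL, against 240 CPM in EIS, a ratio of 0.576 (0.515 to 0.646), and in T or NK cells 67.0 CPM in EL, against 86.0 CPM in EIS, a ratio of 0.779 (0.433 to 1.34). ATP5MG, subunit g, had 96.6 CPM in EL epithelium, against 74.8 CPM in EIS epithelium, 102 CPM in EL ciliated cells, against 195 CPM in EIS ciliated cells, and 48.4 CPM in EL T or NK cells, against 88.9 CPM in EIS T or NK cells. Both subunits hold ATP synthase dimers together, and ATP5MG had the lowest ratio of the members tested in ciliated cells, 0.521 (0.459 to 0.592), and in T or NK cells, 0.544 (0.274 to 1.00).

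ATP5MC3, one of the genes for the c-ring through which protons pass, had 389 CPM in EL epithelium, against 299 CPM in EIS epithelium, and 456 CPM in EL ciliated cells, against 611 CPM in EIS ciliated cells. ATP5MC2, a second gene for the same mature protein, was in these 2 types on the other side of the median gene, with 446 CPM in EL epithelium, against 158 CPM in EIS epithelium, and 418 CPM in EL ciliated cells, against 366 CPM in EIS ciliated cells. ATP5PO, the part of the stalk known as OSCP, had 147 CPM in EL ciliated cells, against 212 CPM in EIS ciliated cells, a ratio of 0.696 (0.620 to 0.784), and 67.0 CPM in EL T or NK cells, against 121 CPM in EIS T or NK cells, a ratio of 0.554 (0.313 to 0.930). ATP5MD, a small dimer subunit also called DAPIT, had 179 CPM in EL T or NK cells, against 232 CPM in EIS T or NK cells, a ratio of 0.771 (0.546 to 1.07). ATP5F1A and ATP5F1B are the alpha and beta subunits of the catalytic head. ATP5F1A had 303 CPM in EL epithelium, against 123 CPM in EIS epithelium, and 245 CPM in EL ciliated cells, against 256 CPM in EIS ciliated cells. ATP5F1B had 419 CPM in EL epithelium, against 126 CPM in EIS epithelium, and 398 CPM in EL ciliated cells, against 431 CPM in EIS ciliated cells. In epithelium ATP5F1B stood above the median gene, at 0.42 (log2, relative), and ATP5F1A on it, at -0.01. Without the EIS cluster led by SLPI, ATP5F1B lay below it, at -0.22.

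The epithelial values compare cells of different clusters. Clustering without the 65 genes placed EL epithelial cells mainly in clusters 2 (1282 cells, led by JPH4), 0 (1099, DLX6), 3 (1095, OPTC), 5 (1052, CLDN10) and 9 (679, CYP26A1), and EIS epithelial cells mainly in clusters 7 (750, SLPI), 11 (178, HAVCR1), 6 (116, CTSL) and 1 (103, ACTG2). Trophoblast markers summed to 4.86 CPM in EL epithelial cells, against 214 CPM in EIS epithelial cells, with 2 and 1 of 10 markers at 0, and mesenchymal markers to 152 CPM, against 374 CPM, with 5 and 2 of 18 at 0. Without cells holding any trophoblast marker the members' relative sum was 0.12 in place of -0.07. Without the EIS cluster led by SLPI the CPM ratio was 0.19 on the log2 scale, in place of 1.24, and without the EL cluster led by CYP26A1 the relative sum was -0.50; these 3 settings were chosen after seeing the data. Ciliated cells were a closer match, with 1153 of 1446 EL cells and 236 of 256 EIS cells in the same cluster 4, led by TPPP3, DYNLRB2 and SNTN, and within cluster 4 alone the relative sum was -0.24. Trophoblast markers summed to 14.4 CPM in EL ciliated cells, against 63.0 CPM in EIS ciliated cells, with 4 and 2 of 10 at 0, and mesenchymal markers to 67.8 CPM in EL, against 212 CPM in EIS, with 7 and 5 of 18 at 0. T or NK cells of both libraries lay mainly in clusters 12 and 17, and mesenchymal markers summed to 11.2 CPM in the EL cells, against 381 CPM in the EIS cells, with 15 and 5 of 18 at 0. The part of these markers in the members' values was not tested beyond the settings given here.

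The members' share also differed between depth ranges. In EL epithelial cells the share was 1.55% at 500 to 1000 UMIs, 1.51% at 1000 to 2000, 1.51% at 2000 to 4000, 1.64% at 4000 to 8000 and 2.35% above. In EIS epithelial cells it was 0.934%, 1.02%, 0.983%, 0.711% and 0.806% over the same ranges. The EIS order changed outside SLPI, ACP5 and the other features set aside earlier. There, EIS epithelial cells not in the cluster led by THBS1 held 1.18%, 1.35%, 1.44%, 1.34% and 1.67%. Their share was thus highest above 8000 UMIs. The EL rise above 8000 UMIs was much smaller outside the EL cluster led by CYP26A1. EL epithelial cells outside it held 1.49% at 2000 to 4000 UMIs, 1.58% at 4000 to 8000 and 1.66% above 8000. The 572 cells of that cluster above 8000 UMIs held 2.68%. Ciliated cells of 4000 to 8000 UMIs held 1.77% in EL, against 2.02% in EIS, while those above 8000 UMIs held 1.98% in EL, against 1.92% in EIS. At 2000 to 4000 UMIs ciliated cells held 1.73% in EL, against 1.52% in EIS, on 185 and 27 cells. The lower ciliated share in EL was therefore seen at 4000 to 8000 UMIs, where 842 EL and 148 EIS ciliated cells lay, and not in the other ranges that both libraries filled. The part of depth in the differences between the sows was not tested beyond the ranges and settings given here.

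Levels over the 10 combinations of cell type and library showed which members varied most. Of the 65 genes, 18 had their highest CPM in EL epithelial cells and 5 in EL ciliated cells, 23 in EIS ciliated cells and 12 in EIS trophoblast-gated cells. The lowest CPM lay in EL T or NK cells for 9 of them, in EIS epithelial cells for 33, in EIS macrophages for 11 and in EIS T or NK cells for 8. The same counts were not made over all features, so they do not set the members apart. Most features were low in EIS epithelium: 86.7% had a higher CPM in EL epithelium, and 82.3% had a higher CPM in EIS ciliated cells. To set the overall level aside, each gene was also taken as a share of all member UMIs in a combination, for the 63 members with at least 200 UMIs. The genes named from this ranking, and those named for clusters below, were chosen after their values were seen.

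COX7A1, the muscle-type isoform, had the widest spread of that share, 10.7-fold. The 4 highest levels were those of the epithelial and ciliated cells given above. It was 29.8 CPM (12.9 to 58.7) in EL T or NK cells, against 8.75 CPM (3.21 to 19.0) in EIS T or NK cells, on 8 and 6 UMIs. In the types described in EIS alone it was 49.2 CPM in mesenchymal cells, 47.8 CPM in trophoblast-gated cells, 33.9 CPM in endothelial cells and 12.3 CPM in macrophages. Mesenchymal and trophoblast-gated cells did not differ beyond counting error, with intervals of 41.7 to 57.6 and 41.0 to 55.4 CPM. After COX7A1 came NDUFAF4 (5.23-fold), NDUFAF7 (4.72-fold) and NDUFB1 (4.49-fold).

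NDUFC2, with a spread of 4.11-fold, stood out in ciliated cells. It had 1325 CPM in EL and 1225 CPM in EIS ciliated cells, then 637 CPM in EL epithelium, 437 CPM in EIS trophoblast-gated cells and 145 CPM in EIS epithelium. The other combinations lay between 186 CPM in EIS macrophages and 297 CPM in EIS endothelial cells, with 194 CPM in T or NK cells of both libraries. NDUFB4, another accessory subunit of complex I, had 561 CPM in EL and 637 CPM in EIS ciliated cells, and elsewhere lay between 138 and 273 CPM. NDUFA8, also an accessory subunit, had 294 CPM in EL and 362 CPM in EIS ciliated cells, 254 CPM in EIS endothelial cells, and 220 CPM in EL epithelium, against 70.5 CPM in EIS epithelium.

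NDUFA13 followed a different order. It had 1353 CPM in EL epithelium and 624 CPM in EL ciliated cells, then 470 CPM in EIS trophoblast-gated cells, 417 CPM in EIS ciliated cells and 386 CPM in EIS epithelium, with a spread of 3.78-fold in its share. In T or NK cells it was at 302 CPM in the EL library and 280 CPM in the EIS library, and in the other EIS types it lay between 220 CPM in endothelial cells and 242 CPM in mesenchymal cells. COX7A2L was among the members with comparatively high levels in lymphocytes. Its 238 CPM in EL and 190 CPM in EIS T or NK cells lay between the 276 CPM of EL epithelium and the 160 CPM of EIS endothelial cells, while EIS epithelium had 56.3 CPM. COX8A was also high in T or NK cells, at 834 CPM in the EL library and 745 CPM in the EIS library.

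The narrowest spreads belonged to COX5A (1.23-fold), ATP5PF, a subunit of the peripheral stalk (1.29-fold), NDUFB3 (1.29-fold) and ATP5IF1 (1.38-fold). These genes held nearly the same share of all member UMIs in every combination, while the CPM of COX5A still ranged between its extremes of 308 in EL epithelium and 123 in EIS epithelium.

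**Figure D3:**
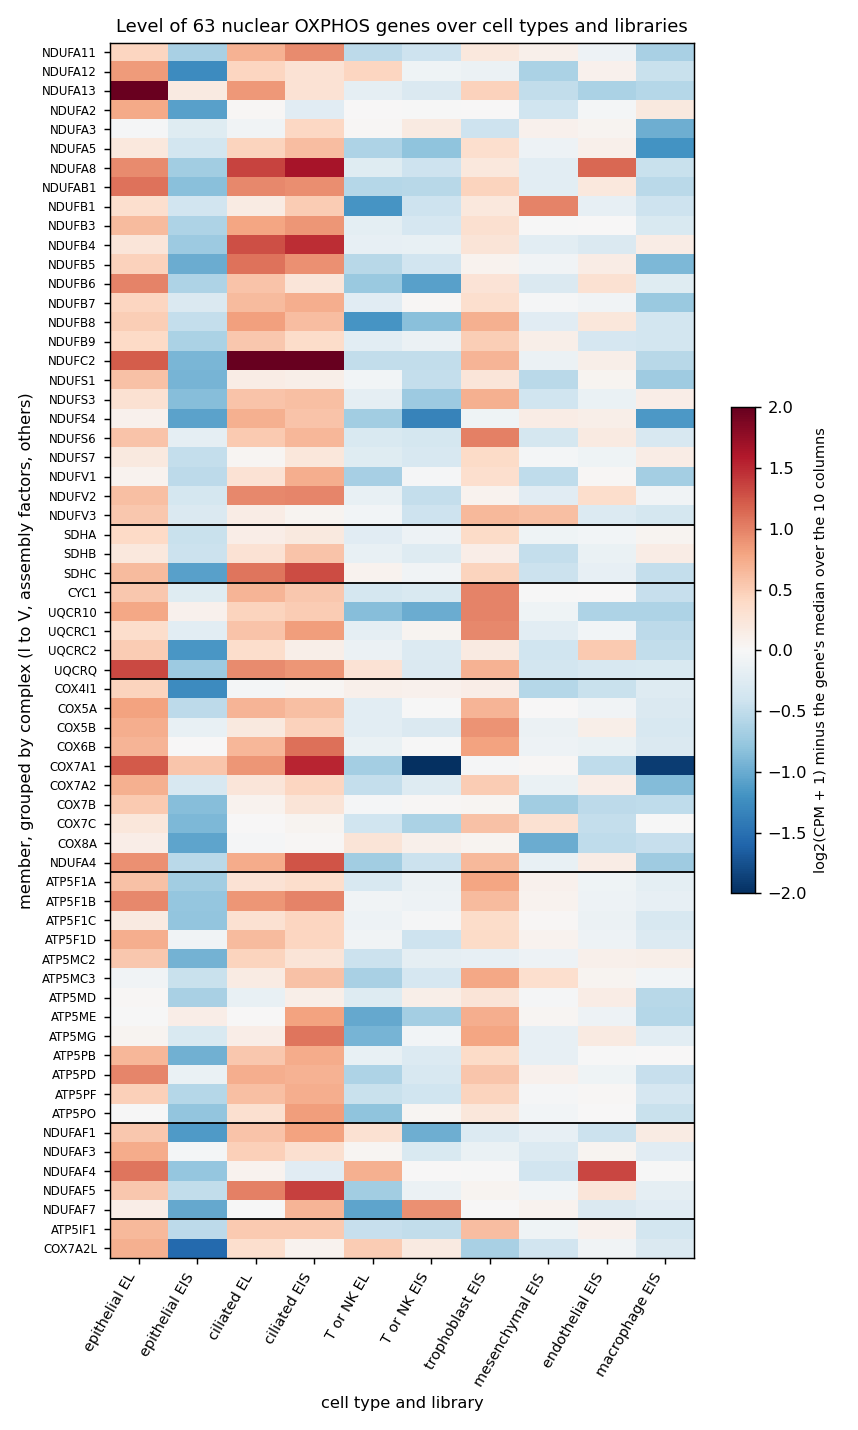
Level of 63 members (rows, grouped by complex) in the 10 combinations of cell type and library (columns), as log2(CPM + 1) minus the gene's own median over the columns. Red is above and blue below that median, and COX6B2 and NDUFA4L2 are left out for low counts. The EIS epithelial and T or NK columns are mostly blue, and the ciliated columns mostly red, with colours capped at 2 log2 units either side.

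**Figure D4:**
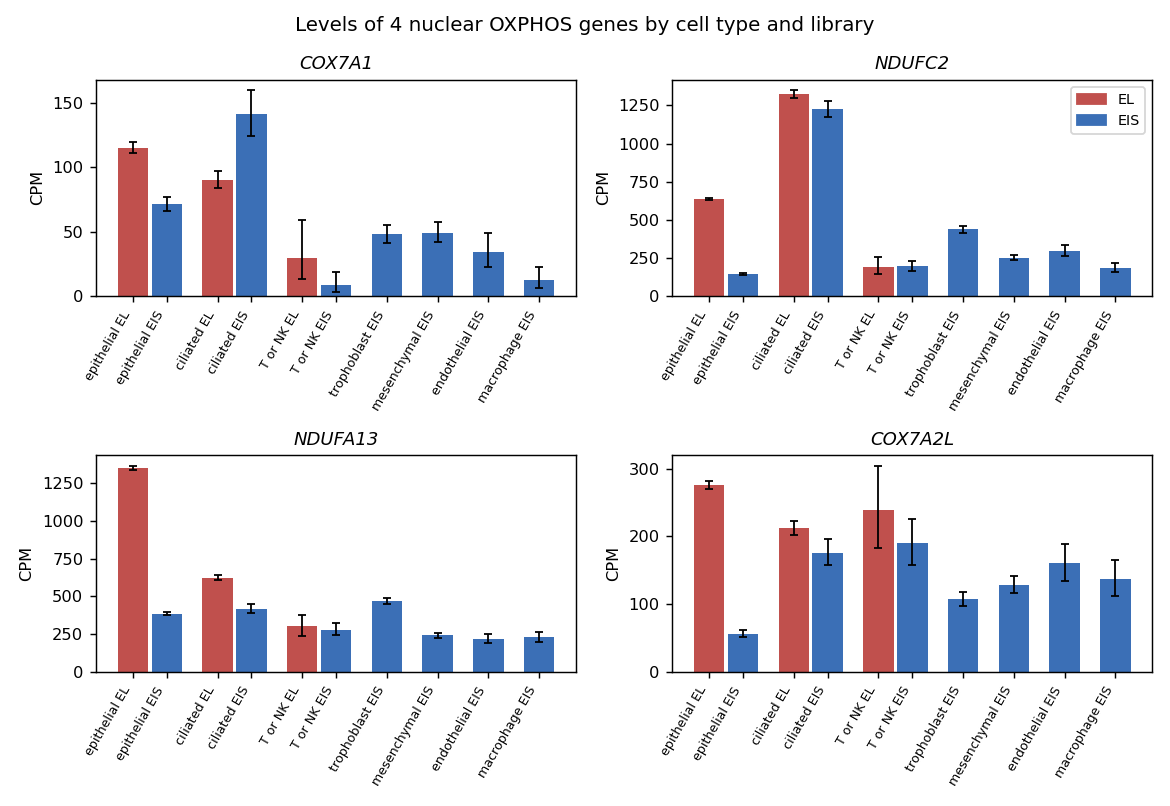
CPM (vertical axis, from 0) of COX7A1, NDUFC2, NDUFA13 and COX7A2L in each cell type and library, EL red and EIS blue, with exact Poisson 95% intervals for counting error. NDUFC2 peaks in ciliated cells of both libraries (1325 and 1225 CPM), NDUFA13 in EL epithelium (1353 CPM), and COX7A1 is lowest in EIS T or NK cells (8.75 CPM).

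Cell types were also compared inside a library, where sow and library are the same for both. Ciliated cells had more of the members than T or NK cells, with a ratio of summed CPM of 1.69 (1.63 to 1.75) in EL and 1.81 (1.77 to 1.86) in EIS. Of the members tested, 57 of 63 in EL and 57 of 61 in EIS had the higher CPM in ciliated cells, beside 59.7% and 60.8% of all features, and the sums stood at 0.45 and 0.49 relative to the median gene (log2). Epithelial cells also had more than T or NK cells in EL, with a ratio of 1.80 (1.73 to 1.86) and 61 of 64 members higher, beside 52.3% of all features. In EIS the epithelial ratio was 0.764 (0.746 to 0.782), with 18 of 63 members higher, beside 32.9%, yet relative to the median gene the sum was above T or NK cells there too, at 0.38, against 0.85 in EL. Ciliated cells compared with epithelial cells gave a ratio of 0.940 (0.935 to 0.946) in EL, with 26 of 64 members higher (45.4% of all features), and of 2.37 (2.35 to 2.40) in EIS, with 63 of 63 higher (82.3%). Set against the median gene, those sums were at -0.00085 in EL, with 30 of 64 members above it, and at 0.11 in EIS, with 28 of 63 above it.

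Within the epithelium the members' share of all UMIs varied several-fold between clusters. The range was narrower outside the 5 features over 1% of a library. There the share was 1.35% in the EIS cluster led by SLPI, which held 0.538% of all UMIs in the members. It was 1.32% in the EL cluster led by JPH4, against 2.67% in the EL cluster led by CYP26A1. Of the 29 clusters, all made without the 65 genes, the highest share was 2.67% (2.66 to 2.68) in an EL cluster of 708 cells led by CYP26A1, TSPO and HDC. CYP26A1 breaks down retinoic acid, TSPO is a protein of the outer mitochondrial membrane and HDC makes histamine. Compared with the 5041 other epithelial cells of EL the ratio was 1.71 (1.70 to 1.72), and 54 of 64 members were over 1.5-fold higher relative to the median gene, beside 29.5% of all features. This cluster was also deeper, with a median of 12936.5 UMIs. At 2000 to 4000 UMIs its cells held 2.41%, against 1.49% in the other EL epithelial cells, at 4000 to 8000 UMIs 2.55%, against 1.58%, and above 8000 UMIs 2.68%, against 1.66%, so the higher share was present at each of these depths.

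Within the cluster led by CYP26A1, COX4I1 had 2795 CPM, against 1019 CPM in the other EL epithelial cells, a ratio of 2.74 (2.69 to 2.79). NDUFB6 had 261 CPM, against 75.7 CPM, a ratio of 3.44 (3.22 to 3.68), and ATP5F1D, the delta subunit of the ATP synthase, had 192 CPM, against 57.0 CPM, a ratio of 3.37 (3.12 to 3.64). NDUFA13 went the other way, with 719 CPM in this cluster, against 1683 CPM in the other EL epithelial cells, a ratio of 0.427 (0.416 to 0.438). It lay at -0.55 relative to the median gene, and the one member over 1.5-fold lower there was the scarce COX6B2. NDUFA13 was instead higher in an EL cluster of 317 cells led by CCK and PDZK1. It had 3045 CPM there, against 1243 CPM in the other EL epithelial cells, a ratio of 2.45 (2.38 to 2.52). The level of NDUFA13 was not taken separately in the remaining EL epithelial clusters. As a whole the cluster led by CCK held 1.95% of its UMIs in the members, with a ratio of 1.01 (0.995 to 1.02) to the other EL epithelial cells and 3 of 64 members over 1.5-fold higher, beside 13.4% of all features.

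Other gene lists were also higher in the cluster led by CYP26A1. The list median relative to the median gene was 1.48 (log2) for glycolysis, with 11 of 12 genes above it, 1.02 for mitochondrial import, with 16 of 18 above, and 0.90 for mitochondrial ribosomal proteins, with 56 of 60 above. The tricarboxylic acid cycle stood at 0.79, with 8 of 10 above, and cytosolic ribosomal proteins at 0.80, with 66 of 70 above. The respiratory members were therefore among several groups that stood high there.

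In EIS, 3 small clusters had similar shares. One of 34 cells led by THBS1 and MAL held 2.61% (2.57 to 2.65), one of 189 cells led by DPPA5 and HAVCR1 held 2.59%, and one of 76 cells led by TMEM213 and MMP7 held 2.57%. Relative to the median gene, and against the other EIS epithelial cells, 50 of 62 members were over 1.5-fold higher in the first, beside 30.6% of all features, 45 of 62 in the second, beside 29.5%, and 22 of 61 in the third, beside 21.4%. Of the 34 cells of the first, 28 passed the epithelial gate and 2 the trophoblast gate. Its leading genes include UPK2, a marker of the trophoblast gate, so it is not named as endometrial epithelium here. Of the 189 cells of the second, 72 passed the trophoblast gate and 44 the epithelial gate. Its cells held 3.15% at 500 to 1000 UMIs and 2.60% above 8000 UMIs, against 0.789% and 0.775% in the other EIS epithelial cells. Outside SLPI, ACP5 and the other features set aside earlier, its cells held 3.32% and 2.67%. The other EIS epithelial cells then held 1.01% and 1.77%, so the gap above 8000 UMIs was much smaller there. In the third, the 25 cells of 1000 to 2000 UMIs held 1.01%, against 1.02% in the other EIS epithelial cells, so at that depth its share was not higher.

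The leading members differed between these 3 clusters. The ratios are of CPM against the other EIS epithelial cells, and the median gene was also higher in each cluster. It stood at 0.83 (log2) for the cluster led by DPPA5, 1.18 for that led by TMEM213 and 0.68 for that led by THBS1. Of all features, 74.4%, 86.9% and 68.8% had the higher CPM, in the same order. In the cluster led by DPPA5, NDUFS3 had 424 CPM, against 46.1 CPM in the other EIS epithelial cells, a ratio of 9.20 (8.07 to 10.5), while COX7A1 had 14.8 CPM, against 72.1 CPM, a ratio of 0.205 (0.117 to 0.336). In the cluster led by TMEM213, COX7A1 had 454 CPM, against 60.8 CPM in the other EIS epithelial cells, a ratio of 7.47 (6.11 to 9.07), and ATP5F1B 778 CPM, against 109 CPM, a ratio of 7.16 (6.15 to 8.30). COX7A1 thus lay on opposite sides in these EIS clusters, whose overall shares were close. In the cluster led by THBS1, NDUFA12 had 533 CPM, against 70.8 CPM in the other EIS epithelial cells, a ratio of 7.53 (6.58 to 8.61).

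A low epithelial share was found in EIS. The cluster led by SLPI, UABP-2 and ACP5, with 959 cells of which 750 were gated epithelial, held 0.538% of UMIs in the members, or 1.35% outside the 5 features over 1% of a library. Its sum was at -0.52 relative to the median gene against the other EIS epithelial cells, with 27 of 61 members over 1.5-fold lower, beside 25.2% of all features. UQCRQ had 45.1 CPM there, against 314 CPM in the other EIS epithelial cells, a ratio of 0.144 (0.127 to 0.163), and ATP5MC3 124 CPM, against 833 CPM, a ratio of 0.149 (0.138 to 0.160). NDUFA13 was less far apart, at 360 CPM, against 466 CPM. The median gene itself stood at -1.14 (log2) in this comparison, and 8.67% of all features and 0 of 61 members had the higher CPM. NDUFA13 was thus lower by less than the median gene was. Relative to the median gene, 3 of 61 members were over 1.5-fold higher, beside 22.0% of all features. The tricarboxylic acid cycle (median -0.95, 0 of 10 above) and glycolysis (-1.45, 1 of 10 above) were low in the same cells, while mitochondrial ribosomal proteins were at 0.05.

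A cluster of 839 EIS cells led by DCLK2 and KSR2 held 0.364%, the lowest share of the clusters, and its median depth was 752 UMIs. Of these cells 87 were gated epithelial, so the cluster is not described as epithelium. Against the EIS epithelial cells outside it, 57 of 63 members were over 1.5-fold lower there relative to the median gene, beside 34.6% of all features, and mitochondrial ribosomal proteins (median -1.48), mitochondrial import (-1.56), proteasome subunits (-1.496) and cytosolic ribosomal proteins (-1.93) were low with them. Whether RNA quality in these shallow cells has a part in this was not tested.

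**Figure D5:**
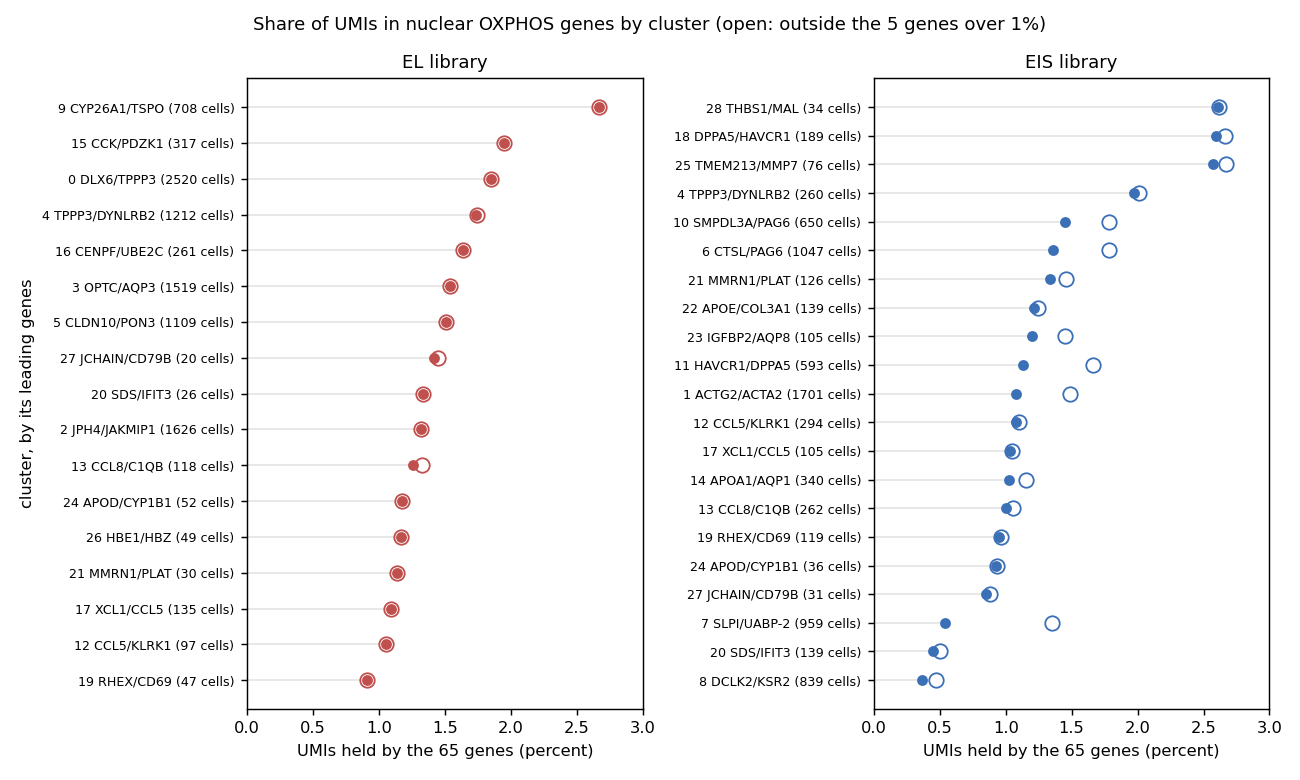
Percent of UMIs held by the 65 genes (horizontal axis) in each cluster with at least 20 cells of a library, EL on the left and EIS on the right, each labelled by cluster number, 2 leading genes and cell count. Filled points are shares of all UMIs and open points shares outside the 5 features over 1% of a library. The EL cluster led by CYP26A1 tops its panel at 2.67%, and the EIS clusters led by SLPI and DCLK2 lie at 0.538% and 0.364%.

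With at least 20 cells from each library, 9 clusters could be set side by side. In cluster 4, led by TPPP3, the members held 1.74% in 1212 EL cells, against 1.97% in 260 EIS cells. In cluster 13, led by CCL8 and C1QB, they held 1.26% in 118 EL cells, of which 34 were gated as macrophages, against 1.00% in 262 EIS cells, of which 152 were. EL cells also held the larger share in cluster 27 (1.42% in 20 EL cells, against 0.848% in 31 EIS cells), cluster 20 (1.33% in 26, against 0.450% in 139) and cluster 24 (1.17% in 52, against 0.927% in 36). The cells compared were not always alike. In cluster 20, 5 EL and 23 EIS cells were gated as neutrophils, and 8 and 3 as epithelial. Median depth there was 1609 UMIs in EL and 585 UMIs in EIS, and in cluster 24 it was 872 and 6507 UMIs. The part of cell content and depth in these differences was not tested. EL held the smaller share in cluster 21, at 1.14% in 30 EL cells, against 1.33% in 126 EIS cells. The counting intervals of both libraries overlapped in the other 3 clusters. These were cluster 12 (1.05% in 97 EL cells, against 1.08% in 294 EIS cells), cluster 17 (1.09% in 135, against 1.03% in 105) and cluster 19 (0.907% in 47, against 0.948% in 119). The order of the 2 libraries was thus not the same in every shared cluster.

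The members were set beside other gene lists under the same scaling. Their own median relative to the median gene was -0.22 in epithelium, -0.13 in ciliated cells and -0.06 in T or NK cells (log2, EL over EIS). Mitochondrial ribosomal proteins, which translate the mitochondrially encoded subunits, stood at -0.04, 0.06 and 0.06, with 26 of 60, 36 of 60 and 12 of 21 genes above the median gene. Proteins of mitochondrial import stood at -0.13, 0.07 and 0.09, and proteasome subunits at -0.07, 0.07 and -0.17. Assembly factors of the respiratory chain outside the 65 genes stood at -0.06 in epithelium and -0.09 in ciliated cells, and regulators of respiratory genes at 0.06 and -0.22. Of the regulators in ciliated cells, PPARGC1A, a coactivator of mitochondrial biogenesis, had 26.9 CPM in EL, against 41.1 CPM in EIS, a ratio of 0.655 (0.4998 to 0.866). NRF1, a transcription factor of respiratory genes, had 33.8 CPM in EL ciliated cells, against 49.5 CPM in EIS ciliated cells, a ratio of 0.682 (0.534 to 0.878).

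Cytosolic ribosomal proteins and glycolysis lay on opposite sides of the median gene in epithelium. Cytosolic ribosomal proteins had a median of 0.79 with 58 of 70 above the median gene, and the list includes 7 kinase genes whose symbols begin with RPS6K. Glycolysis had a median of -0.43 with 2 of 12 above. Within it HK2, which starts glycolysis, had 64.8 CPM in EL epithelium, against 1.07 CPM in EIS epithelium, whereas ENO1 had 173 CPM in EL epithelium, against 230 CPM in EIS epithelium. Immediate early genes, which respond to tissue handling among other stimuli, stood at -1.62 in epithelium, -0.35 in ciliated cells and -0.59 in T or NK cells, so they were lower in EL than the median gene in the same comparisons. Their part in the members' values was not tested.

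OGDH and MRPS36 were among several listed genes with epithelial ratios above those of all 64 members tested. Others were HK2 (60.3), RPS6KC1 (12.6) and RPS3A (9.44), from other lists. OGDH, a subunit of the 2-oxoglutarate dehydrogenase complex, had 1378 CPM in EL epithelium, against 71.0 CPM in EIS epithelium, a ratio of 19.4 (18.1 to 20.9), and 607 CPM in EL ciliated cells, against 396 CPM in EIS ciliated cells. MRPS36, which in mammals is a component of the same dehydrogenase complex, was listed by its symbol among the mitochondrial ribosomal proteins. MRPS36 had 1767 CPM in EL epithelium, against 26.7 CPM in EIS epithelium, a ratio of 66.2 (58.8 to 74.9). In ciliated cells it had 568 CPM in EL, against 147 CPM in EIS. The other genes of the cycle named by the same rule lay far closer, with FH at 88.9 CPM in EL epithelium, against 25.8 CPM in EIS epithelium, and MDH2 at 96.7 CPM in EL epithelium, against 53.4 CPM in EIS epithelium. Among the members the highest epithelial ratio was the 4.90 of COX7A2L. Several members are known to have processed pseudogene copies, and how reads shared with such copies were counted is not given in the sources used here.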

How the data were processed

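Single cells of endometrium from 2 sows (EL and EIS, 1 library each) were measured with 10x 3′ chemistry. The deposited matrices hold whole-number UMI counts per feature and barcode, not normalized, written by cellranger 6.1.0 per the file headers. Cell Ranger 2.1.1 is named in the submitters' processing notes, and no build or gene annotation is named in the sources used here. The libraries held 10936 EL and 8848 EIS barcodes, with 43302286 and 36069473 UMIs. Names came from the feature table, which pairs 10753 of 26881 features with a symbol, and no table used here matched its identifiers.

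Cells with at least 500 UMIs and 300 genes were kept. Scrublet (in scanpy 1.11.5) set an automatic threshold that marked 0 EL and 1 EIS cells, so the cells with the highest doublet scores, 0.8% per 1000 barcodes, were removed instead (933 in EL, 601 in EIS). Clusters came from 2000 variable genes without the 65 members, 30 principal components, 15 neighbours and Leiden clustering (leidenalg 0.10.2) at resolution 1. Gate thresholds and cluster descriptions were set after the data were seen. Counts were summed per type and library. With 1 library a group there is no test: shares have Clopper-Pearson, levels exact Poisson and ratios exact conditional 95% intervals, all for counting error only. Features needed 50 UMIs over both libraries, 1.5-fold was the size used to call a difference, and 3 counts were the floor. TMM factors came from edgeR 4.0.16 in R 4.3.3, and the rest from Python 3.11.15 with numpy 2.4.6, scipy 1.17.1 and pandas 2.3.3. The procedure was tested on simulated data. Members, lists and markers were chosen with earlier results of these data known. Named genes were the 5 members with the highest and the 5 with the lowest ratio in each comparison, a set of subunits of known role and tissue isoforms, and up to 4 genes per other list by size of ratio; members named beyond these were chosen after their values were seen.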

Additional observations from a re-analysis of the deposited data

How the results depend on the processing

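Values are log2 ratios of EL over EIS. The summed members were recomputed under 12 planned settings and 5 chosen after seeing the data (the depth range, the 3 epithelial subsets and the ciliated cluster alone), which gave 86 values: 47 moved by less than counting error, 34 moved by more, and 5 reversed. Of 1495 further values, 1227 held, 240 moved and 28 reversed. They cover named single members, complex V, the median gene, the members' median, the members tested and below the median gene, and the members' percent of UMIs. The held values, here and among the summed members, include some that could not change by construction. A change of scaling leaves values relative to the median gene as they were. The UMI minimum for features does not enter the summed CPM ratios. Taking subunits only leaves complex V and the median gene as they were. Such values do not show robustness, and they were not counted separately. Single members and complex V held when they stayed within counting error, and the other values when they stayed within a fixed limit. The cause was not tested except where a setting's construction shows it.

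In epithelium the summed CPM ratio was 1.24. It was -0.041 with TMM factors and 0.23 with the total taken without features over 1% of a library, settings that change the scaling itself, and 1.25 with 1000 genes required, 0.93 with cells thinned to 1000 UMIs, 1.11 with 1 more marker required, 1.67 with named clusters and 1.31 with 10% free RNA removed. It was 0.60 in cells of 1000 to 4000 UMIs, 0.93 without the EL cluster led by CYP26A1, 1.66 without cells holding a trophoblast marker and 0.19 without the EIS cluster led by SLPI. Relative to the median gene the epithelial sum was -0.07, and it was 0.34 with no minimum beyond 1 UMI, -0.11 with 1000 genes, -0.051 with no doublet removal, -0.15 thinned, -0.039 with 1 more marker, 0.022 with named clusters and -0.13 with free RNA removed. It was -0.24 in cells of 1000 to 4000 UMIs, -0.50 without the CYP26A1 cluster, 0.12 without trophoblast-marker cells and -0.31 without the SLPI cluster.

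In ciliated cells the summed CPM ratio was -0.10. It was -0.14 with TMM factors and also without features over 1%, -0.020 with no doublet removal, -0.12 thinned, -0.18 with named clusters, -0.15 with free RNA removed, 0.23 in cells of 1000 to 4000 UMIs and -0.19 in the ciliated cluster alone. Relative to the median gene the main value was -0.14, and it was -0.10 with no minimum beyond 1 UMI, -0.20 thinned, -0.23 with named clusters, -0.17 with free RNA removed, -0.10 at 1000 to 4000 UMIs and -0.24 in the ciliated cluster alone. In T or NK cells the CPM ratio of 0.01 became -0.074 with TMM factors and -0.10 with free RNA removed, and the relative value of -0.05 became -0.12 with free RNA removed.

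Single members and complex V reversed relative to the median gene as follows, in epithelium first. With no minimum beyond 1 UMI, complex V was at 0.10, NDUFB8 at 0.074, ATP5IF1 at 0.28, COX7A2 at 0.14 and COX8A at 0.29. Thinned, UQCRC2 was at -0.032 and NDUFA4 at -0.030. With named clusters ATP5IF1 was at 0.029 and COX8A at 0.039, and without trophoblast-marker cells they were at 0.13 and 0.15. At 1000 to 4000 UMIs COX6B2 was at 0.32, COX4I1 at -0.19 and NDUFA4 at -0.13. Without the CYP26A1 cluster COX4I1 was at -0.40 and NDUFA4 at -0.32. Without the SLPI cluster SDHC was at -0.028, NDUFS1 at -0.21, UQCRC2 at -0.26, ATP5F1B at -0.22 and NDUFA4 at -0.43. In ciliated cells NDUFA2 was at -0.0096 thinned, -0.059 with named clusters and -0.079 in the ciliated cluster alone, NDUFV1 was at 0.20 thinned, and at 1000 to 4000 UMIs NDUFB6 was at -0.12, COX7A2 at 0.16 and COX8A at 0.11.

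No paired analysis was possible because each group is 1 library. For the same reason no replicate could be left out. The search of promoters for motifs was not run, since no sequence was used here. Depth limits the T or NK cells most, where 13 of 65 members had under 50 UMIs.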
